A study of Mus musculus with 12 samples.

Results

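The 10 genes followed here mark endothelial cells, the lining of blood vessels, and were measured by bulk RNA-seq in pieces of ventral spinal cord from E12.5 mouse embryos. They were *Pecam1*, *Cdh5*, *Kdr*, *Tek*, *Tie1*, *Flt1*, *Cldn5*, *Esam*, *Emcn* and *Slc2a1*, chosen by name with earlier results of these data known. All 10 were found by NCBI Gene ID among the 45777 genes listed in each of the 12 libraries. The 4 groups of 3 libraries each were compared: *Isl2* +/- (heterozygote) and *Isl2* -/- (KO) embryos, each at the brachial (forelimb) and the lumbar (hindlimb) level. *Isl2* encodes a LIM-homeodomain transcription factor of motor neurons, and the null allele is carried in every cell of the KO embryo, not in the endothelium alone. The controls carried 1 null allele too, since no wild-type group was included. The tissue was trimmed around *Hb9::GFP*, a reporter driven by the promoter of the motor neuron gene *Mnx1*, and was not sorted, so vessels and every other cell type in the trimmed piece contributed RNA. The methods give 3 animals per genotype, and whether a brachial and a lumbar library came from the same embryo is not stated. The main fits took the libraries as independent.

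Values are TPM (a level per transcript length, scaled to the same total in each library) brought to a common scale by median-of-ratios factors. Aligned bases ranged from 4.48 to 6.64 Gb per library, with KO replicate 3 of the brachial level the least deep, and between 22983 and 24191 genes had values above 0. The tables hold no read counts, so no counting interval is given for a single library. *Isl2* itself averaged 8.92 ± 0.72 TPM (SD, n = 3) in brachial heterozygotes and 5.93 ± 1.41 in brachial KO, and 9.39 ± 0.94 in lumbar heterozygotes against 7.37 ± 0.85 in lumbar KO, with no overlap between genotypes at either level. Motor neuron genes were present in the libraries (*Isl1* at a mean of 56.9 TPM). Among 11 skeletal muscle genes *Myod1* was at 0 in all 12 libraries. The list as a whole was not absent, with sums of 5.725 to 7.645 TPM in brachial and 8.067 to 11.57 in lumbar libraries.

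As background, vessels grow into the neural tube from a plexus on its surface, guided by VEGF that neural cells release. *Kdr* encodes the main signalling receptor for VEGF, and *Flt1* a further receptor that binds VEGF strongly and limits its action. *Tek* and *Tie1* are the angiopoietin receptor and its partner, which steady newly formed vessels. *Cdh5*, *Pecam1*, *Esam* and *Cldn5* encode proteins of the contacts between endothelial cells, of which the claudin of *Cldn5* seals the blood-brain barrier. *Emcn* encodes a surface sialomucin, and *Slc2a1* the glucose transporter of barrier vessels, which neural progenitors and red blood cells also make.

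All 10 genes were detected in every library, and their mean levels spanned from 2.83 to 34.3 TPM. *Slc2a1* had the highest mean over the 12 libraries, 34.3 TPM (range 29.2 to 40.1), and *Cldn5* the next, 32.1 TPM (20.2 to 44.9). The ranges of these genes overlapped, and *Slc2a1* was above *Cldn5* in 7 of 12 libraries. *Kdr* followed at 12.48 TPM, *Pecam1* at 10.7, *Esam* at 8.99, *Tie1* at 8.37, *Emcn* at 4.85, *Flt1* at 3.79, *Tek* at 3.36 and *Cdh5* at 2.83. Neighbours in this order overlapped in range, except that *Cldn5* lay above *Kdr* and *Tie1* above *Emcn* in each of the 12 libraries. *Cldn5* varied the most between libraries relative to its mean (coefficient of variation 28.3%) and *Slc2a1* the least (10.49%). Both are among the more abundant genes of this tissue, at the 86.2 and 87.1 percentile of genes above 0, and *Cdh5* was at the 59.1 percentile.

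**Figure D1:**
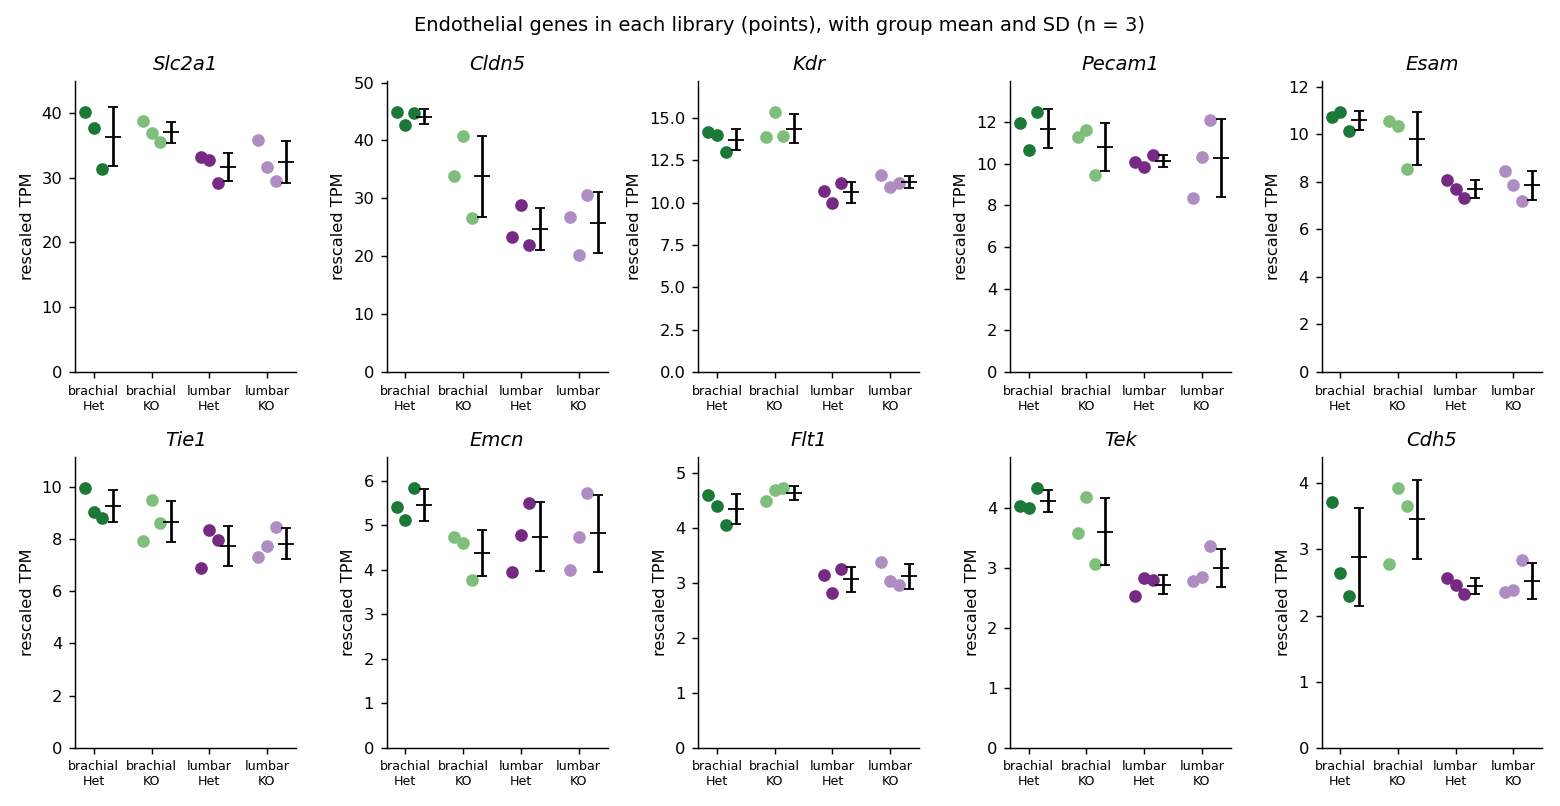
Rescaled TPM of each of the 10 genes (vertical axis, from 0) in the 12 libraries, by group (horizontal axis). Points are libraries, and the black mark and bars are the group mean and SD (n = 3). *Kdr*, *Flt1* and *Esam* lie lower in all 6 lumbar libraries than in any brachial one, and *Emcn* overlaps between the levels.

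Promoter sequences were at hand for 7 of the 10 genes, from RefSeq on GRCm38.p6, as 250 bases before and 50 after a transcript start. That start lies inside the range of the whole gene by 617 bases for *Kdr*, 427 for *Flt1*, 203 for *Tek* and 16 for *Emcn*, and at its end for the other 3. Those of 4 genes are shown because their genes differ in the comparison of levels: *Cldn5* had the largest difference, *Flt1* and *Kdr* did not overlap between levels, and *Emcn* had the smallest difference. Capitals mark GGAA on either strand (read as TTCC on the other), the core letters of the sites bound by ETS factors, a family that includes known endothelial regulators. Each is written 5′ to 3′ on the strand of its gene: *Cldn5* at chr16:18776597-18776896 (+), *Flt1* at chr5:147725962-147726261 (-), *Kdr* at chr5:75978406-75978705 (-) and *Emcn* at chr3:137340828-137341127 (+).
Cldn5: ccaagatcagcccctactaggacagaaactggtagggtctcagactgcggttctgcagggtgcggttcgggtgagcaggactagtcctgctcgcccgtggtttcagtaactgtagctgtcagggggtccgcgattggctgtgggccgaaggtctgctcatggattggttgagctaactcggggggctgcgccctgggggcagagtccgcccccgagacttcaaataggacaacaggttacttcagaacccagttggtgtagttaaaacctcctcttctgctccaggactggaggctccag
Flt1: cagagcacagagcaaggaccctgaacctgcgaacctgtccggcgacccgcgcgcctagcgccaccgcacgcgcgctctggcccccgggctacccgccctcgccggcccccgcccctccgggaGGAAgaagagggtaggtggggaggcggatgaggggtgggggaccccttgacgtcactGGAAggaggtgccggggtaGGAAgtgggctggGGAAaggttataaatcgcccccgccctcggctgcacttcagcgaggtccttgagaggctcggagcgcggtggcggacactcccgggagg
Kdr: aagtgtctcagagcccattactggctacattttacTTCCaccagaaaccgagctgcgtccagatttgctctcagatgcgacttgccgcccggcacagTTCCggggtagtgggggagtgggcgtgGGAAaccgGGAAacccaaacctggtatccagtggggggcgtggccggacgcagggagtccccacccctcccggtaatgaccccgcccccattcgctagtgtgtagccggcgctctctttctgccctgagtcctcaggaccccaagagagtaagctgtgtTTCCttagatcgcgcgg
Emcn: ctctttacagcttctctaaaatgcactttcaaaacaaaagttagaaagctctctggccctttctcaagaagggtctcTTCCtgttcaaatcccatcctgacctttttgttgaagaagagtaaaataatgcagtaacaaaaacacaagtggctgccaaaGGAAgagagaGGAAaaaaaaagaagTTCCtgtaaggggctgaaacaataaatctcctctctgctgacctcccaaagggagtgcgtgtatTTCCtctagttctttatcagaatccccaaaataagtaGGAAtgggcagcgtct
The letters GGAA occurred 0 times in the *Cldn5* window, 4 times in that of *Flt1*, 5 in *Kdr* and 6 in *Emcn*. Over 32851 promoters of the same length the median was 3, 96% held at least 1, 46.3% held 4 or more, 28.6% 5 or more and 15.7% 6 or more. Of the other matched genes, *Tie1* had 9 (1.59% of promoters have as many), *Tek* 2 and *Slc2a1* 0. A match of 4 letters is a description of the window and not a binding site.

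The comparison of the lumbar with the brachial level gave the clearest difference in these genes. All 10 had a negative log2 difference (lumbar minus brachial, 12 libraries, genotype in the fit), where 47.8% of all 16706 genes tested were negative. Their median was -0.34, against 0.01 over all genes. *Kdr*, *Flt1*, *Esam*, *Cldn5* and *Tek* passed an adjusted p of 0.05 in the limma fit across all genes with Benjamini-Hochberg adjustment, 5 of 10, where 9.62% of all genes passed it as lower at the lumbar level and 18.5% in either direction. *Kdr*, *Flt1* and *Esam* did not overlap between the 6 brachial and the 6 lumbar libraries, and 4.66% of all genes had no overlap with the lumbar level lower. The 10 genes were chosen with earlier results of these data known, so the shares over all genes are a description. Each of the 5 calls was kept with any 1 of the 12 libraries left out.

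Among the receptors, *Kdr* (NCBI Gene 16542, chr5:75932827-75979072 on the minus strand, mm10) was at 14.1, 14.0 and 13.0 TPM in the brachial heterozygotes and 13.9, 15.3 and 13.9 in the brachial KO. The lumbar values were 10.7, 9.95 and 11.2 in heterozygotes and 11.6, 10.9 and 11.2 in KO. Every lumbar library was thus below every brachial one, and the genotypes overlapped at both levels. The lumbar level of *Kdr* was 77.9% of the brachial level (log2 difference -0.36 ± 0.06 SE, adjusted p = 0.0013, limma).

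*Flt1* (NCBI Gene 14254, chr5:147561604-147726438 on the minus strand) was at 4.59, 4.39 and 4.04 TPM in brachial heterozygotes and 4.49, 4.68 and 4.72 in brachial KO. At the lumbar level it was at 3.14, 2.81 and 3.24 in heterozygotes and 3.38, 3.02 and 2.95 in KO. The levels were again separate, with the lowest brachial library (4.04) above the highest lumbar one (3.38). *Flt1* showed the second largest difference of the 10 genes, 69.5% of the brachial level (-0.52 ± 0.08, adjusted p = 0.0013, limma).

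*Tek* (NCBI Gene 21687, chr4:94739086-94874976 on the plus strand) was at 4.04, 3.99 and 4.34 TPM in brachial heterozygotes and 3.58, 4.18 and 3.07 in brachial KO, and at 2.54, 2.83 and 2.81 in lumbar heterozygotes and 2.77, 2.85 and 3.37 in lumbar KO. Only KO libraries overlapped: brachial KO replicate 3 lay below lumbar KO replicate 3. The difference was -0.42 ± 0.11 (adjusted p = 0.0179, limma). *Tie1* (NCBI Gene 21846, chr4:118471191-118489849 on the minus strand) averaged 8.97 ± 0.71 TPM in brachial and 7.78 ± 0.60 in lumbar libraries (SD, n = 6). Its difference of -0.20 ± 0.08 did not pass (adjusted p = 0.0837, limma), with 1 of the 6 brachial libraries (7.91) inside the lumbar range.

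Among the junction genes, *Cldn5* (NCBI Gene 12741, chr16:18776847-18778262 on the plus strand) was at 44.9, 42.6 and 44.8 TPM in brachial heterozygotes and 33.9, 40.7 and 26.7 in brachial KO. At the lumbar level it was at 23.3, 28.9 and 21.9 in heterozygotes and 26.7, 20.2 and 30.6 in KO. The 3 brachial heterozygotes lay close together above all 9 other libraries, and brachial KO replicate 3 fell within the lumbar range. *Cldn5* had the largest difference of the 10 genes, 65.3% of the brachial level (-0.61 ± 0.13, adjusted p = 0.0074, limma).

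*Esam* (NCBI Gene 69524, chr9:37528089-37538319 on the plus strand), an adhesion molecule of the tight junction, was at 10.7, 10.9 and 10.1 TPM in brachial heterozygotes and 10.6, 10.3 and 8.54 in brachial KO. Lumbar values were 8.06, 7.70 and 7.30 in heterozygotes and 8.46, 7.88 and 7.21 in KO, all below the brachial ones. The difference was -0.39 ± 0.07 (adjusted p = 0.0039, limma). *Esam* lies on the chromosome of *Isl2*, 18 Mb from it. *Pecam1* (NCBI Gene 18613, chr11:106654213-106715281 on the minus strand) and *Cdh5* (NCBI Gene 12562, chr8:104101613-104144504 on the plus strand), the adhesion molecule and the cadherin most used to label endothelium, overlapped between levels. *Pecam1* was at 11.2 ± 1.06 TPM brachially and 10.2 ± 1.21 at the lumbar level (SD, n = 6; -0.14 ± 0.09, adjusted p = 0.31, limma). *Cdh5* was at 3.17 ± 0.68 and 2.49 ± 0.19 TPM (-0.31 ± 0.13, adjusted p = 0.126, limma).

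*Emcn* (NCBI Gene 59308, chr3:137341062-137431069 on the plus strand) differed the least, at 5.40, 5.12 and 5.84 TPM in brachial heterozygotes, 4.74, 4.60 and 3.77 in brachial KO, 3.95, 4.78 and 5.51 in lumbar heterozygotes and 4.003, 4.73 and 5.72 in lumbar KO. The 4 groups overlapped apart from the brachial heterozygotes against the brachial KO. Its difference between levels was -0.04 with a 95% confidence interval from -0.30 to 0.22, and the sign turned when either brachial heterozygote replicate 3 (0.001) or lumbar heterozygote replicate 1 (0.03) was left out. *Slc2a1* (NCBI Gene 20525, chr4:119108745-119137330 on the plus strand) was at 36.7 ± 3.07 TPM brachially and 32.0 ± 2.49 at the lumbar level (SD, n = 6; -0.19 ± 0.07, adjusted p = 0.0711, limma). It passed without brachial heterozygote replicate 3 (adjusted p = 0.0222, limma) and without lumbar KO replicate 1 (adjusted p = 0.0442, limma).

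**Figure D2:**
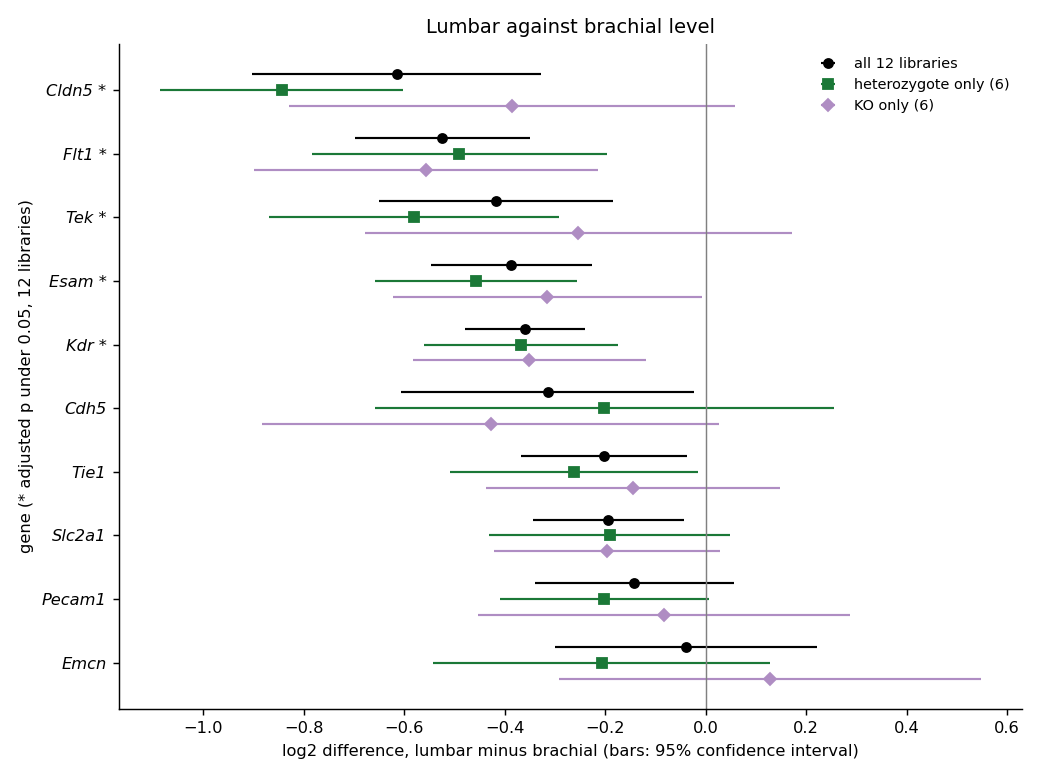
Log2 difference, lumbar minus brachial (horizontal axis), of each gene (vertical axis, ordered by size), with 95% confidence intervals, in all 12 libraries (black circles), in heterozygotes only (green squares) and in KO only (violet diamonds). All 12-library estimates lie left of 0, from -0.61 for *Cldn5* to -0.04 for *Emcn*, and *Emcn* lies right of 0 in KO libraries only.

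Each genotype was then taken alone, with 3 libraries at each level. In heterozygotes all 10 genes had a negative difference (median -0.32), 7 of them without overlap between levels (13% of all genes had none in that direction), and *Cldn5* (-0.84, adjusted p = 0.01) and *Esam* (-0.46, adjusted p = 0.0389) passed the limma test, which 1.97% of all genes passed as lower. In KO embryos 9 of 10 were negative (median -0.28), *Kdr*, *Flt1* and *Esam* did not overlap (14.2% of all genes), and none passed, against 0.959% of all genes. *Flt1* and *Kdr* had like differences in the heterozygotes (-0.49 and -0.37) and in the KO (-0.56 and -0.35). *Cldn5* and *Tek* were at -0.84 and -0.58 in the heterozygotes and -0.39 and -0.25 in the KO, and the test of these gaps is given with the interaction at the end.

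The ligands and co-receptors of these receptors were mixed in direction. Of 9 tested in a list of 11, 2 passed as lower and 2 as higher in lumbar libraries by adjusted p. Beside this list and those that follow, 9.62% of all genes passed as lower and 18.5% in either direction. *Angpt1*, the ligand that activates the *Tek* receptor, fell from 9.91 ± 1.77 to 6.43 ± 0.57 TPM (SD, n = 6; log2 difference -0.60, adjusted p = 0.0032, limma). *Angpt2*, which often opposes it, rose from 0.73 ± 0.23 to 1.40 ± 0.28 TPM (0.89, adjusted p = 0.0076, limma). The neuropilins, which bind both VEGF and semaphorins and are abundant on axons, moved apart: *Nrp1* rose from 55.7 ± 2.296 to 80.5 ± 10.1 TPM (0.52, adjusted p = 0.001, limma) and *Nrp2* fell from 105 ± 13.2 to 78.8 ± 10.1 (-0.41, adjusted p = 0.0121, limma). These 4 calls were kept with any 1 library left out. *Vegfa*, the main VEGF, was at 25.6 ± 2.68 and 24.3 ± 2.73 TPM (-0.07, adjusted p = 0.567, limma).

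Other genes of the endothelium were counted from lists. Of 24 tested pan-endothelial genes beside the 10, 5 were lower and 0 higher by adjusted p (2 to 6 lower with 1 library left out, fewest without brachial KO replicate 2), 20 had a negative sign and the median was -0.25. *Cd93*, a lectin-like surface receptor, fell from 10.7 ± 0.73 to 8.59 ± 0.42 TPM (SD, n = 6; -0.31, adjusted p = 0.0054, limma), and *Arhgef15*, a guanine exchange factor downstream of VEGF, fell by 0.48 on the log2 scale. Both were kept with any 1 library left out. *Ramp2*, a partner of the adrenomedullin receptor, fell by 0.42 (kept in 9 of 12 such fits), *Egfl7*, a secreted vessel protein, by 0.33 (5 of 12), and *Rasip1*, a junction regulator named after its value was seen, by 0.31 (2 of 12).

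Of 18 endothelial transcription factors tested, 4 were lower and 0 higher, with a median of -0.27. *Ets2* (-0.41), *Mecom* (-0.45) and *Ets1* (-0.26) were kept with any 1 library left out, and *Fli1* (-0.45) in 2 of 12 such fits. *Ets2*, *Mecom* and *Ets1* are also made outside vessels. *Lmo2*, the most abundant gene of the list and also a gene of interneurons, stood at 40.4 TPM at both levels.

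The blood-brain barrier list, which holds transporters and junction genes that brain vessels gain as they mature, had 8 lower and 1 higher of 22 tested (median -0.32), and 5 lower without brachial heterozygote replicate 2. *Ocln*, the tight junction protein occludin, fell from 0.97 ± 0.12 to 0.29 ± 0.10 TPM (SD, n = 6; -1.51, adjusted p = 7.4e-04, limma), a low level that the pseudocount of 0.1 TPM compresses. *Slco1c1*, a carrier of thyroid hormone, fell from 4.07 ± 1.02 to 1.67 ± 0.67 (-1.28, adjusted p = 0.0021, limma). *Itm2a* fell from 14.3 ± 2.41 to 9.12 ± 0.96 (-0.63, adjusted p = 0.0019, limma) and *Slco2b1*, an organic anion carrier, from 2.57 ± 0.15 to 1.72 ± 0.26 (-0.56, adjusted p = 0.0055, limma). All 4 were kept with any 1 library left out. *Slc16a1*, the lactate carrier, was the 1 gene of this list that rose, from 9.32 ± 0.90 to 12.6 ± 2.297 TPM (0.42, kept in 10 of 12 such fits), and it is named after its value was seen. The other lower calls, also named after their values were seen, were *Mfsd2a* (-0.35, kept with any 1 library left out), *Slc7a5* (-0.29, kept in 9 of 12 such fits), *Abcb1a* (-0.38, 3 of 12) and *Slc7a1* (-0.51, 3 of 12).

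Genes of the Wnt signal that induces the barrier were mixed in direction. Of 10 tested, 2 were lower and 2 higher by adjusted p, where 18.5% of all genes passed in either direction, and the median was 0.07. The neural ligand *Wnt7b* rose from 44.2 ± 4.64 to 57.6 ± 5.51 TPM (SD, n = 6; 0.38, adjusted p = 0.0043, limma) and *Ndp*, the norrin ligand, from 5.07 ± 0.52 to 6.67 ± 0.65 (0.39, adjusted p = 0.0089, limma). The call of *Ndp* was not kept with TPM as deposited, without the rescaling. *Wnt7a* (-0.21, kept in 4 of 12 fits with 1 library left out) and the norrin co-receptor *Tspan12* (-0.20, 5 of 12) fell. The receptor complex members *Adgra2* and *Reck* were at -0.27 and 0.08 and did not pass.

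Of 17 arterial, venous and tip cell genes tested, 3 were lower and 0 higher (1 to 3 lower with 1 library left out), where 9.62% of all genes were lower. Their median was -0.06, and 0.02 in heterozygotes alone. *Pdgfb*, by which tip cells recruit pericytes, fell from 3.81 ± 0.52 to 2.52 ± 0.48 TPM (SD, n = 6; -0.58, adjusted p = 0.0164, limma), kept with any 1 library left out. *Hey2*, an arterial Notch target, fell by 0.48 (kept in 5 of 12 such fits) and *Aplnr*, the venous and tip cell apelin receptor, by 0.35 (2 of 12).

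The other facilitative glucose transporters were set beside *Slc2a1*. Of 9 tested, *Slc2a1* included, *Slc2a3*, the neuronal transporter, fell from 25.4 ± 4.37 to 16.4 ± 0.83 TPM (SD, n = 6; -0.61, adjusted p = 0.0015, limma) and *Slc2a13*, an inositol carrier of the same family, by 0.59 (adjusted p = 0.0048, limma), both kept with any 1 library left out. Of 14 hypoxia-response genes, among them *Slc2a1* and *Vegfa*, *Adm* (-0.52) and *Ankrd37* (-0.33) fell and *Hk2* (0.49) rose, kept in 7, 4 and 9 of 12 such fits. The abundant glycolysis genes *Aldoa*, *Pgk1* and *Ldha* did not pass.

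**Figure D3:**
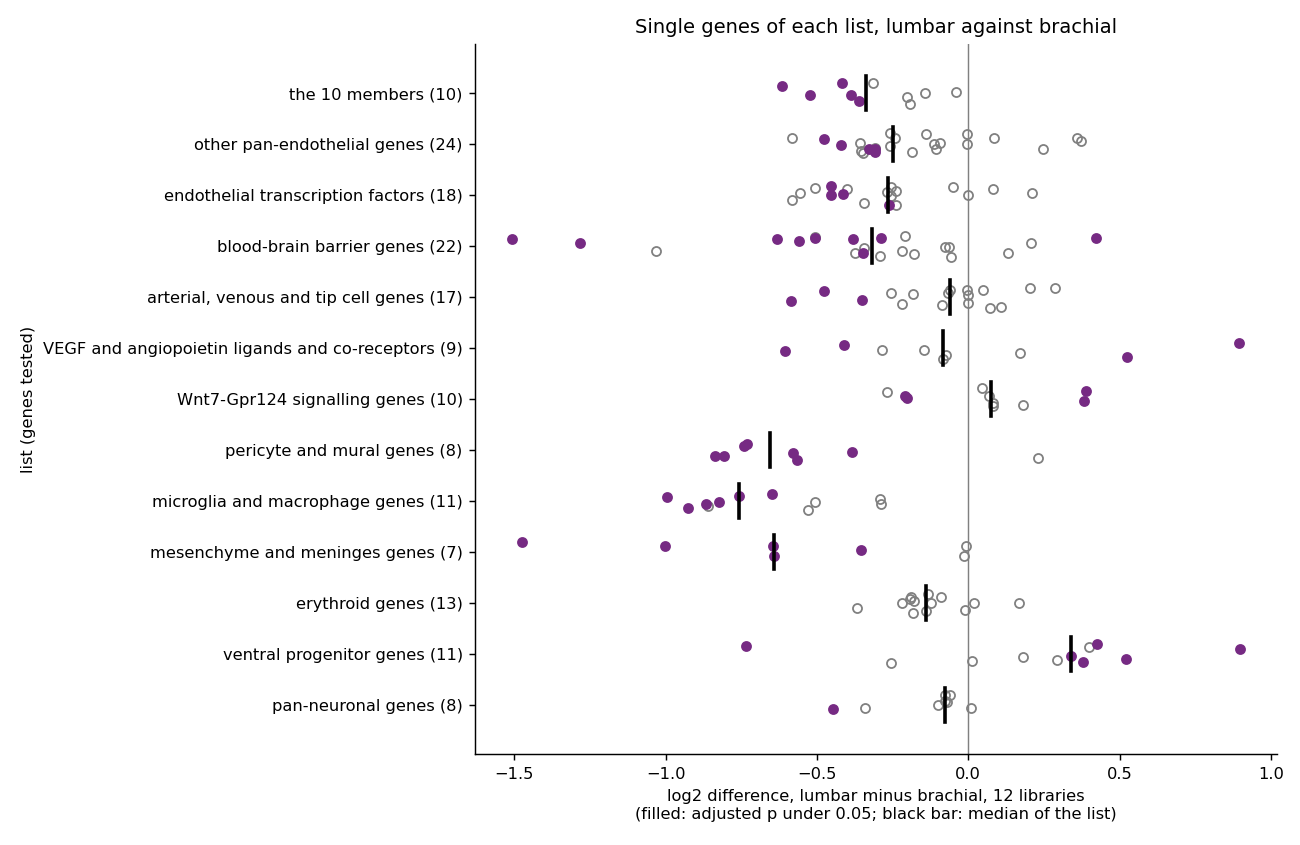
Log2 difference, lumbar minus brachial (horizontal axis), of single genes in 13 lists (vertical axis, number of genes tested in brackets). Each point is a gene, filled where the adjusted p is under 0.05, and the black bar is the median of the list. The medians of the 10 genes (-0.34), the barrier list (-0.32), the mural list (-0.66) and the microglia list (-0.76) lie left of 0, and that of ventral progenitor genes (0.34) right of it.

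Genes of other cell types moved with the level as well, and their part in the result was not tested. Beside their counts, 9.62% of all genes passed as lower and 18.5% in either direction. Of 8 tested pericyte and mural genes 7 were lower at the lumbar level and 0 higher (median -0.66), with a summed level of 123.8 to 138.8 TPM over the 14 listed genes in brachial libraries and 86.6 to 101.3 in lumbar ones. *Pdgfrb*, the receptor that pericytes use to follow the endothelium, fell from 6.31 ± 0.98 to 3.48 ± 0.42 TPM (SD, n = 6; -0.84, adjusted p = 9.5e-04, limma), and *Abcc9* (-0.74), *Kcnj8* (-0.73) and *Vtn* (-0.38) fell with it in every fit with 1 library left out. *Acta2*, *Myh11* and *Anpep* averaged under 0.1 TPM. *Notch3*, which mural cells share with neural progenitors, was at 8.13 and 9.12 TPM and was the tested gene of the list with a positive sign.

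Of 11 tested microglia and macrophage genes 6 were lower and 0 higher (median -0.76), and their 13 genes summed to 29.3 to 49.8 TPM brachially and 15.5 to 29.3 at the lumbar level. *Csf1r*, the receptor microglia need to survive, fell from 3.41 ± 0.83 to 1.64 ± 0.31 TPM (SD, n = 6; -0.996, adjusted p = 0.0026, limma), and *P2ry12* (-0.93), *C1qc* (-0.87) and *C1qb* (-0.76) fell too, each kept with any 1 library left out. Of 7 tested mesenchyme and meninges genes 5 were lower, with summed levels of 91.1 to 116.9 TPM brachially and 71.4 to 96.1 at the lumbar level, and 3 were lower in 6 of the 12 fits with 1 library left out. Most of that sum was *Dcn* (65.0 and 51.1 TPM) and *Foxp2* (24.4 and 24.3). The 7 genes too low to be tested, apart from *Dpt*, had somewhat higher lumbar means, such as *Foxd1* (0.19 and 0.35 TPM) and *Col1a1* (0.17 and 0.28), and with no filter on low values the median of the list was 0.05 in place of -0.64. *Dpt* was at 0 in all libraries and *Lum*, *Twist2* and *Tbx18* averaged under 0.1 TPM. The calls of *Foxc1* (-0.64) and *Pdgfra* (-1.47) were kept in every fit with 1 library left out, that of *Postn* (-1.001) in 11 of 12, *Col1a2* (-0.64) in 6 and *Dcn* (-0.35), named after its value was seen, in 3.

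Erythroid genes, the mark of blood within vessels, had 0 of 13 called, and their summed level of 2503 to 7136 TPM brachially overlapped the lumbar range of 2466 to 5140. Ventral progenitor genes went the other way, with 5 of 11 higher and 1 lower (median 0.34) and summed levels of 830.0 to 1060.0 TPM brachially and 1104 to 1411 at the lumbar level. *Hes5* (0.52), *Vim* (0.34) and *Nes* (0.42), genes of dividing progenitors, rose and *Olig2*, the motor neuron progenitor gene, fell (-0.73), in every fit with 1 library left out. Of 8 pan-neuronal genes 1, *Snap25* (-0.45), was lower and 0 higher. In bulk tissue, fewer endothelial cells and less RNA of these genes per cell cannot be told apart.

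Of the remaining lists, motor neuron genes had 2 lower (*Slc5a7* and *Aldh1a2*) and 0 higher of 10, and Schwann and crest genes 2 lower (*Erbb3* and *Fabp7*) and 0 higher of 6. Cartilage and sclerotome genes had 1 higher (*Cnmd*) of 2, and skeletal muscle genes 1 higher (*Mylpf*, kept in 3 of 12 fits with 1 library left out) of 4. Sensory ganglion and sex-linked genes had none of 6 and 5. Over all genes 9.62% passed as lower and 18.5% in either direction, and counts of 1 or 2 in lists this short are a description.

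**Figure D4:**
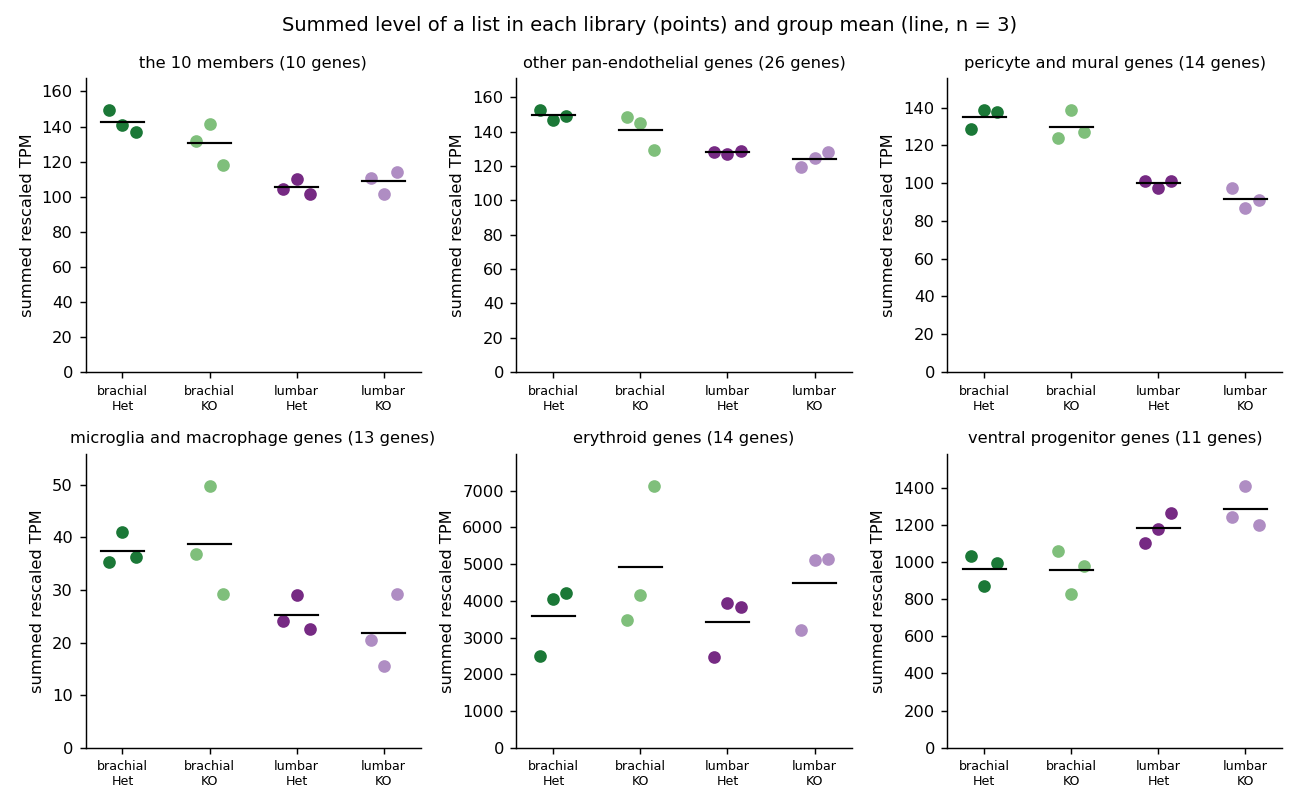
Summed rescaled TPM of 6 lists (vertical axes, from 0) in each of the 12 libraries, by group (horizontal axis). Points are libraries and lines are group means (n = 3). The sums of the 10 endothelial genes (101.7 to 113.9 lumbar, 117.9 to 149.5 brachial) and of mural genes are separate between levels, and erythroid sums overlap.

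The second question of the design is whether loss of *Isl2* changed these genes. At the brachial level none of the 10 passed an adjusted p of 0.05, which 0.00596% of 16775 genes did (1 gene), and none passed a fold threshold, a log2 difference beyond 0.5 in either direction with an unadjusted p under 0.05 in the limma fit, which 3.08% of genes did. The study applied such a threshold to genes that fell, with p-values of another test. An unadjusted p under 0.05 in the limma fit was reached by 13.9% of genes (2330) and by *Cldn5* alone of the 10. Of the 10, 6 had a negative sign (KO minus heterozygote), as did 52% of all genes, and the median was -0.11 (-0.02 without KO replicate 3, the least deep library). The summed level of the 10 genes was 142.5 ± 6.36 TPM in heterozygotes and 130.5 ± 11.96 in KO (SD, n = 3).

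*Cldn5* and *Emcn* did not overlap between genotypes at this level, where 10.4% of all genes had no overlap with KO lower. *Cldn5*, with the values given above, was at 75.5% of the heterozygote level in KO (log2 difference -0.40 ± 0.14, 95% confidence interval -0.74 to -0.07, adjusted p = 0.357, limma). A two-sided exact permutation test gave p = 0.1, the smallest that 3 against 3 allows. The 3 KO libraries were spread widely, and the difference was -0.25 without KO replicate 3 and -0.55 without KO replicate 2. In the latter fit *Cldn5* passed the fold threshold. *Emcn* was at 80.3% (-0.32 ± 0.14, interval -0.64 to 0.01, adjusted p = 0.357, limma).

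*Kdr* (0.07, interval -0.14 to 0.27) and *Slc2a1* (0.03, interval -0.21 to 0.27) had the narrowest intervals, and *Cdh5* (0.26, interval -0.26 to 0.79) the widest. KO replicate 3, the least deep library, was the lowest of the 6 brachial ones for *Cldn5*, *Emcn*, *Tek*, *Esam* and *Pecam1*. It was not the lowest for *Kdr*, *Tie1*, *Slc2a1* and *Cdh5*, and it was the highest for *Flt1* (4.72 TPM). This library also had the highest erythroid sum (7136 TPM). All 14 tested erythroid genes had a positive sign in brachial KO (median 0.50, 0 called by adjusted p), and without KO replicate 3 the median was 0.16 with 5 of 13 negative. Without heterozygote replicate 1 it was 0.26 and without KO replicate 1 0.82. Erythroid genes had summed levels of 2503 to 4217 TPM in heterozygotes and 3488 to 7136 in KO, and their part in the endothelial values was not tested. Of the 24 other pan-endothelial genes, *Robo4*, a guidance receptor of vessels, passed the fold threshold as higher in KO (1.28 and 1.99 TPM, adjusted p = 0.357, limma), and 14 had a negative sign. In other lists *Adm* of the hypoxia list passed it as lower (2.74 and 1.76 TPM, -0.61) and *Nkx6-1* of the progenitor list as higher (2.69 and 4.34 TPM, 0.64), each with an adjusted p of 0.357 (limma). Mural genes had 4 of 8 with a negative sign and summed levels of 128.7 to 138.8 TPM in heterozygotes and 123.8 to 138.8 in KO.

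**Figure D5:**
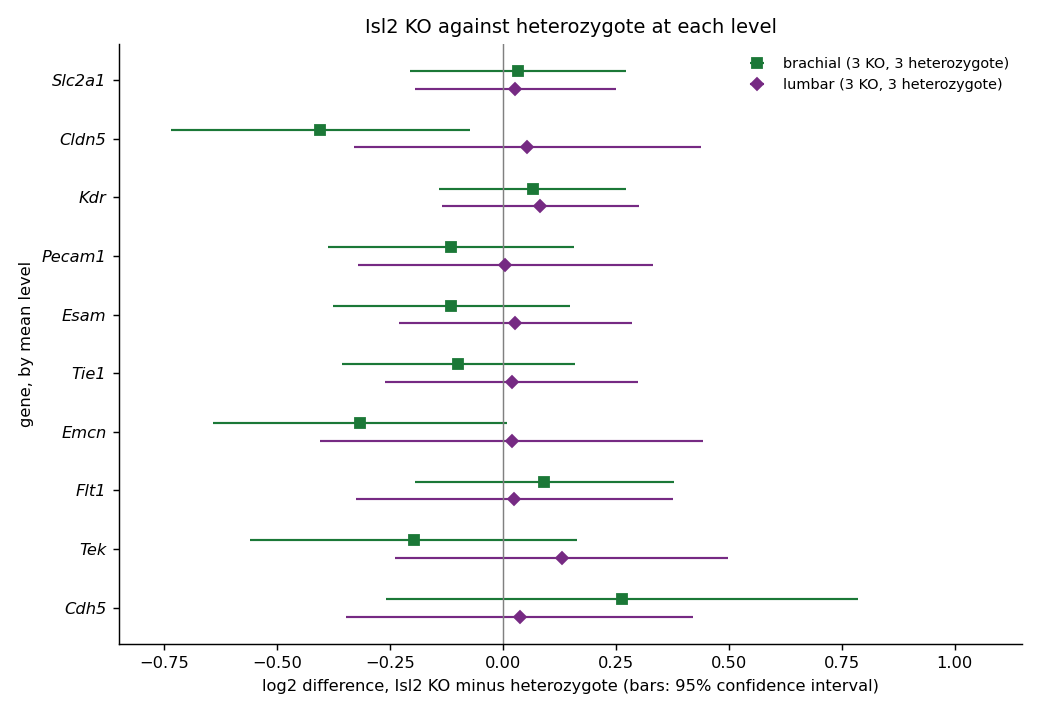
Log2 difference, *Isl2* KO minus heterozygote (horizontal axis), of each gene (vertical axis, by mean level), with 95% confidence intervals, at the brachial (green squares) and the lumbar level (violet diamonds), 3 against 3 libraries each. Lumbar estimates lie between 0.005 and 0.13, and the interval of *Cldn5* at the brachial level, from -0.74 to -0.07, is the one that leaves out 0.

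At the lumbar level the genotypes overlapped for each of the 10 genes, where 9.94% of all genes had no overlap in either direction, and none of the 10 passed either threshold. There 0 of 16629 genes (0%) passed an adjusted p of 0.05, 808 (4.86%) had an unadjusted p under 0.05 in the limma fit, and 1.77% passed the fold threshold. The log2 differences ran from 0.005 for *Pecam1* to 0.13 for *Tek* (median 0.03), all positive where 52.6% of genes were negative, and the signs did not hold: without KO replicate 3 the median was 0.004 with 5 of 10 negative, and without KO replicate 1 it was 0.06 with 3 negative. With all 6 libraries all adjusted p were 0.999 (limma). The outermost bounds of the 95% confidence intervals were -0.40 for *Emcn* and 0.50 for *Tek*, and the narrowest interval was that of *Kdr* (-0.14 to 0.30). The 10 genes summed to 105.5 ± 4.34 TPM in heterozygotes and 108.8 ± 6.36 in KO (SD, n = 3).

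Erythroid genes again had a positive sign in KO, 13 of 13 tested (median 0.54, 0 called by adjusted p), and the median was 0.21 without heterozygote replicate 1, 0.30 without KO replicate 2 and 0.83 without KO replicate 1. Of these *Hba-x*, an embryonic globin gene, passed the fold threshold as higher in KO, at 106.7 TPM in heterozygotes and 172.3 in KO. In the barrier list *Slco1c1* passed that threshold as lower in KO (2.12 and 1.22 TPM, -0.77). Neither passed an adjusted p of 0.05.

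The difference of the genotype effect between levels was tested as an interaction over 12 libraries. None of the 10 genes passed, and neither did any of the 16706 genes (0%), of which 738 (4.42%) had an unadjusted p under 0.05 in the limma fit. *Cldn5* had the largest estimate (0.46, lumbar minus brachial effect, 95% confidence interval -0.07 to 0.98, adjusted p = 0.812, limma), followed by *Emcn* (0.34, interval -0.17 to 0.84) and *Tek* (0.33, interval -0.12 to 0.77). *Flt1* (-0.07) and *Kdr* (0.02) were near 0. The comparisons share libraries, so these estimates are not independent of the differences given above.

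Across the 12 libraries the 10 genes mostly varied together. Of the 45 pairs 41 had a positive Pearson correlation of log2 values (median r 0.61, from -0.32 to 0.97), which includes the difference between levels. With the mean of its group subtracted from each value, 29 of 45 were positive with a median r of 0.21, so less of the shared variation was within groups. *Esam* had the highest median r with the other genes before subtraction (0.80) and *Emcn* the lowest (0.11). These correlations rest on 12 libraries that share level and genotype, and are a description.

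The genes most like the 10 were found by the correlation of each of 12550 protein-coding genes of at least 1 TPM with the mean of the 10 over 12 libraries. Among them were *Fstl5* (r 0.95), *Dync1i1*, *Olfm3*, *Ppp1r3c*, *Cadps2*, *Tnfaip8*, *Lgals1* and *Hoxc5* (0.93). None of these is in a list used here, the first listed genes being *Kcnj8* of the mural list (rank 19, r 0.92), *Itm2a* of the barrier list (rank 23, r 0.91) and *P2ry12* of the microglia list (rank 30, r 0.91). All of the named genes were lower at the lumbar level, as *Hoxc5*, a gene of the brachial *Hox* domain, was (36.4 and 11.6 TPM). With group means subtracted the genes most like them were *Ddb2* (0.96), *Anxa3*, *Nkapl*, *Fbxw17*, *Retsat*, *Chst7*, *Fam122a*, *Ppp4r4*, *Lrrk2* and *Ptgis* (0.82), and no gene was among the first 10 of both, *Dync1i1* being at rank 23 here.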

How the data were processed

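Per the labels and methods, the authors used Trimmomatic 0.38 for trimming, HISAT2 2.1.0 and Bowtie2 2.3.4.1 for mapping (mm10) and StringTie 2.1.3b for quantification of each library, and the gene annotation they used is not given in the sources used here. The deposited tables give TPM per gene, the deposited FPKM from the same StringTie run and the deposited coverage (mean reads per base). The authors tested genotypes with DESeq2, which needs counts and was not used here. The tables hold no counts, so TPM was the main value and FPKM and coverage were alternatives. Libraries were stranded and made from total RNA after ribosomal depletion.

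Symbols came from RefSeq (GRCm38.p6), which held 45679 of the 45777 identifiers, 96.2% of them at the same coordinates. Values of 5 identifiers listed on several lines were summed. Dividing coverage by FPKM gave the aligned bases. Small RNAs took 23.7% to 38.2% of TPM, so TPM was rescaled by median-of-ratios factors (0.893 to 1.25).

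The fits used limma 3.58.1 (R 4.3.3, lmFit and trended eBayes) on log2(TPM + 0.1) of genes averaging at least 0.5 TPM, with Benjamini-Hochberg adjustment over all of them. The pseudocount understates differences of low genes. KO was compared with heterozygote at each level in 6 libraries, and lumbar with brachial, and the interaction, in 12. Exact permutation tests used scipy 1.17.1. The fits were tested on simulated data.

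The 10 genes and the further lists were chosen with earlier results of these data known. Named beside the 10 are, per list, the genes called (of more than 4, the 4 of smallest p) or else up to 3 of highest level, the 10 genes most like the 10 by either correlation (some are not reported here), and *Isl2*. Alternatives were other pseudocounts, filters, scalings and units, replicate number as a block, an untrended fit, other sets of libraries, each library left out and, added after seeing the data, Y-linked transcripts as a term.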

Additional observations from a re-analysis of the deposited data

How the results depend on the processing

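Over the alternatives, 243 of 260 values of single genes in the comparison of levels kept their direction and side of the threshold, as did 186 of 190 in the brachial and 171 of 190 in the lumbar comparison of KO, and 223 of 240 for the interaction. The untrended fit and the replicate block leave each log2 difference as it is and could not turn a direction. In the KO comparisons the smallest adjusted p of the 10 genes was 0.357 (limma), far from the threshold, so there the counts speak of direction only. For lumbar against brachial, the number of the 10 genes with an adjusted p under 0.05 was 5 and ranged from 5 to 6 with 1 library left out, was 7 with TPM as deposited, where *Tie1* (adjusted p = 0.0298, limma) and *Slc2a1* (0.04995) passed too, 2 in heterozygotes only and 0 in KO only, where 6 libraries enter, and *Emcn* was at 0.129 in KO only. TPM as deposited put the median of all genes at -0.125 for the levels, 0.16 for KO at the brachial level and -0.166 for the interaction. With it the median of the 10 genes was -0.475 for the levels, 0.0679 for KO at the brachial level, where *Pecam1* (0.0597), *Tie1* (0.0756) and *Esam* (0.0602) turned positive, and -0.0453 for the interaction, where *Pecam1* (-0.0444), *Kdr* (-0.148), *Tie1* (-0.0463) and *Esam* (-0.0221) turned negative. At the lumbar level KO values near 0 turned with quantile normalization for *Pecam1* (-0.00779) and with Y-linked transcripts as a term for *Tie1* (-0.0142) and *Cldn5* (-0.089), and the interaction of *Slc2a1* turned with rescaling from protein-coding genes (3.28e-04).

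With 1 library left out, values that turned ranged, for KO at the lumbar level, from -0.121 to 0.144 for *Pecam1*, -0.0463 to 0.0819 for *Cdh5*, -0.0598 to 0.0759 for *Tie1*, -0.0344 to 0.0663 for *Flt1*, -0.0791 to 0.221 for *Cldn5*, -0.0274 to 0.0869 for *Esam*, -0.11 to 0.142 for *Emcn* and -0.0499 to 0.0913 for *Slc2a1*. At the brachial level *Slc2a1* ranged from -0.0709 to 0.108, and the number of genes past the fold threshold from 0 to 1. *Emcn* ranged from -0.115 to 0.034 between levels, and the interaction from -0.00638 to 0.26 for *Pecam1*, -0.0278 to 0.0641 for *Kdr* and -0.0828 to 0.0979 for *Slc2a1*. Among other genes of the lists, 42 of the 65 called between levels kept the call with any 1 library left out, and all 65 kept their direction in every fit. Between levels the median of erythroid genes was 0.06 without brachial KO replicate 3.

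Replicate numbers were checked as pairs by correlating deviations of same-numbered libraries from their group means. Heterozygote with KO gave 0.11, 0.30 and 0.06 in brachial libraries and 0.16, -0.30 and -0.11 in lumbar ones, and brachial with lumbar gave -0.05, 0.29 and 0.48 in heterozygotes and 0.03, -0.26 and 0.07 in KO, so the numbers were not used as pairs. With the replicate block 5 genes were called between levels, *Slc2a1* (adjusted p = 0.0318, limma) in place of *Tek* (0.0569), and none of the 10 in the other comparisons. Of the 65 other list genes 17 were not called with the block, *Arhgef15* and *Fabp7* among them, which were called with any 1 library left out. Depth per library is known in aligned bases only, and the intervals of 3 against 3 libraries leave room for differences of up to 0.79 on the log2 scale at the brachial level.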

Other observations

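Y-linked transcripts (*Ddx3y* above 1 TPM) were present in 4 of 6 brachial and 3 of 6 lumbar libraries. *Cldn5* was singled out after its values were seen. At the lumbar level it was at 28.9, 26.7 and 30.6 TPM in the libraries with Y-linked transcripts and 23.3, 21.9 and 20.2 in those without, with no overlap, where 7.28% of genes had no overlap in that direction. The log2 difference with genotype in the fit was 0.43 ± 0.10 SE at the lumbar level (adjusted p = 0.486, limma) and 0.36 ± 0.10 over all 12 libraries (adjusted p = 0.37, limma), so it did not pass the correction. At the brachial level it was 0.22 ± 0.14 with overlap, while *Esam* (0.19 ± 0.10) and *Slc2a1* (0.20 ± 0.09) were higher without overlap in the 4 libraries with Y-linked transcripts, where 5.93% of genes were (adjusted p = 0.9999 for both, limma). With Y-linked transcripts as a term, *Kdr*, *Flt1*, *Esam*, *Cldn5* and *Tek* were again the 5 genes called between levels. Y-linked transcripts were present in 1 library and absent from the other in 3 of the 6 same-numbered brachial and lumbar pairs, so these pairs cannot each be 1 embryo. In heterozygotes they were present in brachial replicates 1 and 2 but at the lumbar level in replicate 2 alone. The heterozygote libraries of the 2 levels thus cannot all be from the same 3 embryos under any pairing.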
